A study of Mus musculus with 138 samples.

Results

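The coronal suture lies between the frontal and parietal bones of the skull vault, and each bone advances into it at an osteogenic front (OF), the margin where osteoprogenitors become osteoblasts. In mice most of the frontal bone derives from cranial neural crest and the parietal bone from head mesoderm, so the 2 coronal OFs face each other across the suture mesenchyme (SM) with different embryonic origins. Osteoblasts of both bones are built by the same program, in which Runx2 and Sp7 act as master regulators, and transcription factors such as those of the Msx, Alx, Tfap2 and Zic families pattern the bones before and during growth. The frontal OF was compared here with the parietal OF of the same embryos, across all genes.

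The 6 samples were chosen by their labels: the second of a pair of laser-captured libraries, made from the coronal suture at E16.5, with 3 frontal OF and 3 parietal OF samples of embryos 1, 2 and 3. They are 6 of the 138 samples of the series. All came from wild-type C57BL/6J embryos without treatment, and the labels do not say how a second library differs from the first of the same embryo and region. The 3 SM libraries of the same embryos entered the model to share the estimate of the spread. The litter labels of embryos 2 and 3 differ only in their last part and that of embryo 1 differs in its earlier parts, so that a litter and embryo 1 cannot be told apart. A captured region holds a mixture of cells, so that fewer cells of a type and less RNA per cell cannot be told apart.

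The 9 libraries held 13225136 to 17388841 counts, of which 13.48 to 16.52% lay on mitochondrial genes. The parietal OF of embryo 2 stood apart in the ribosomal RNA-rich transcript CT010467.1, at 2.94% of its counts against 8.33 to 11.5% in the other 8 libraries. Levels of the Y-linked Ddx3y of 35.9 to 58.9 CPM (counts scaled to a library size of 1000000) and of Xist of at most 0.462 CPM in every library showed the same pattern in all 3 embryos. Osteoblast markers fitted the label of an OF. The summed level of 10 such markers was 36758 to 46918 CPM at the frontal OF and 31065 to 48496 CPM at the parietal OF, against 9186 to 10302 CPM in SM. Levels are CPM after TMM scaling throughout, and a log2 fold change is frontal minus parietal.

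Few genes passed the test between the fronts. Of 16294 genes tested, 2 rose at the frontal OF (0.0123% of genes tested) and 1 at the parietal OF (0.00614%) at an adjusted p under 0.05 (edgeR quasi-likelihood test, Benjamini-Hochberg adjustment). The count depended on the method and the embryos, with 87 genes in DESeq2, 175 without a filter on low counts, 47 without embryo 1 and 0 without embryo 2 or embryo 3. In simulated data the test recovered 67 of 200 genes changed 2-fold (33.5%), against 3 calls in the data. The simulation changed only genes of higher counts and set no effect of embryo. It therefore does not give the number of genes that differ here, and smaller differences can be missed. Among the 3 were a neural crest transcription factor at the frontal OF and a secreted factor at the parietal OF. At an unadjusted p under 0.05 there were 1026 genes, or 6.30%. Counts of genes whose 3 frontal values all lay above the 3 parietal values (803, or 4.93%) and the reverse (789, or 4.84%) were nearly balanced. A random order of the values would give similar shares. The genes described below were therefore chosen from the 10 with the lowest p in each direction, among genes with the same direction in all 3 embryos. Of these, 8 and 10 are given, and except for Tfap2b and C1qtnf3 their differences did not pass the test in edgeR. In DESeq2 each of the 18 genes given passed, with an adjusted p of at most 0.0220, and in limma-voom Fmod, Hs3st3b1, Fbn1 and Col8a1 passed besides Tfap2b and C1qtnf3.

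Tfap2b, which encodes the transcription factor AP-2 beta of neural crest derivatives, was detected at the frontal OF and not at the parietal OF. The gene lies on the forward strand of chromosome 1 (mm10, chr1:19208914-19238576). Its level was 8.87, 13.7 and 13.1 CPM at the frontal OF of embryos 1, 2 and 3, whereas no read was counted in any of the 3 parietal libraries. A floor of 3 counts per library corresponds to 0.196 CPM, so that the frontal OF was at least 60.8-fold higher (adjusted p = 0.0358, edgeR quasi-likelihood test, Benjamini-Hochberg). SM of the same embryos held 0.304, 0.288 and 1.26 CPM. The frontal libraries did not overlap with those of the parietal OF or of SM.

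C1qtnf3, which encodes a secreted protein of the C1q and TNF-related family, rose at the parietal OF. It lies on chromosome 15 (mm10, chr15:10952332-10980150), and its level was 23.9, 49.0 and 32.6 CPM at the parietal OF. At the frontal OF it was 5.13, 6.90 and 5.42 CPM, a log2 fold change of -2.57 (SE 0.32, n = 3 embryos, adjusted p = 0.0358, edgeR quasi-likelihood test, Benjamini-Hochberg). The 3 frontal values were close together and all lay under those of the parietal OF. SM held 19.6, 14.6 and 12.2 CPM.

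**Figure D1:**
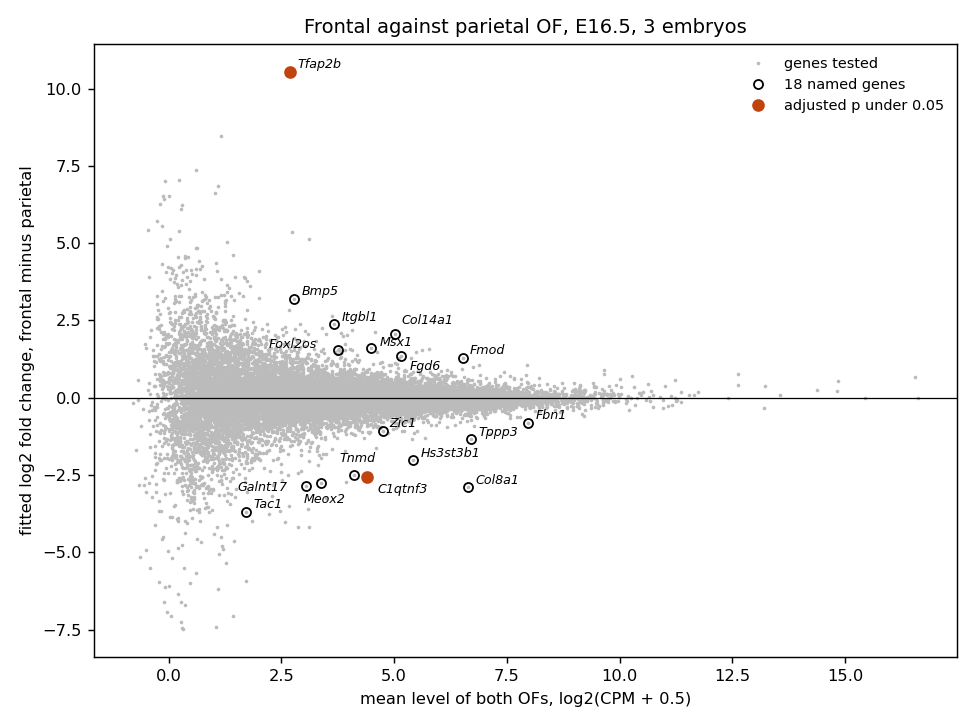
Each gray point is a gene tested, at its mean level in both OFs on a log2(CPM + 0.5) axis and its fitted log2 fold change (frontal minus parietal, 3 embryos). The 2 filled points are Tfap2b above 0 and C1qtnf3 below 0, open circles are the other named genes, and the height of Tfap2b rests on a parietal count of 0 and is no measured fold.

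The next genes higher at the frontal OF were chosen, like all named genes, for the same direction in all 3 embryos. Bmp5, a ligand of the BMP family, measured 13.9, 12.7 and 8.05 CPM at the frontal OF and 1.53, 1.42 and 0.777 CPM at the parietal OF (adjusted p = 0.145, edgeR). Msx1, a homeobox transcription factor of the craniofacial skeleton, measured 27.9, 35.0 and 34.0 CPM against 7.80, 7.37 and 18.999 CPM (adjusted p = 0.270, edgeR). Both kept the frontal values clear of the parietal values, with log2 fold changes of 3.21 (SE 0.50) and 1.62 (SE 0.30). Foxl2os, a noncoding transcript next to the forkhead gene Foxl2, measured 22.5, 16.01 and 19.1 CPM against 8.73, 4.90 and 6.43 CPM. Since counting ignored strand, reads of overlapping transcripts on the opposite strand cannot be told apart from it.

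The other 4 genes given for the frontal side were chosen by the same rule. Fmod, a small leucine-rich proteoglycan that binds collagen fibrils, measured 146, 106 and 131 CPM at the frontal OF and 92.1, 39.1 and 35.3 CPM at the parietal OF. Col14a1, a collagen that associates with fibrils, measured 42.2, 37.2 and 72.1 CPM against 18.1, 11.3 and 9.53 CPM. Itgbl1, a secreted protein related to the beta integrins, measured 17.9, 22.2 and 19.6 CPM against 8.998, 2.83 and 2.19 CPM. In these 3 genes the parietal OF of embryo 1 lay above the other 2 parietal libraries. Fgd6, a guanine nucleotide exchange factor, measured 44.4, 49.8 and 55.4 CPM against 30.7, 13.9 and 16.2 CPM. The adjusted p of these 4 genes was 0.270 to 0.279 (edgeR).

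On the parietal side, 9 genes besides C1qtnf3 are given. Hs3st3b1, a sulfotransferase that modifies heparan sulfate, measured 41.5, 87.5 and 74.9 CPM at the parietal OF and 21.0, 21.2 and 7.97 CPM at the frontal OF (adjusted p = 0.162, edgeR). Fbn1, which encodes the microfibril protein fibrillin-1, measured 228, 358 and 383 CPM against 164, 195 and 179 CPM, a log2 fold change of -0.82 (SE 0.14, adjusted p = 0.190, edgeR). Col8a1, a short-chain collagen, measured 89.9, 301 and 137 CPM against 33.8, 9.51 and 25.1 CPM (adjusted p = 0.256, edgeR). None of the 3 overlapped between the fronts. Col8a1 is also a member of the fixed list of ectocranial mesenchyme markers, whose values are given with the other cell types.

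Among transcription factors, Meox2, a homeobox gene of mesoderm derivatives, measured 16.4, 18.3 and 16.2 CPM at the parietal OF and 4.55, 3.55 and 0.904 CPM at the frontal OF. Zic1, a zinc finger factor in which variants cause human craniosynostosis, measured 22.0, 37.5 and 47.6 CPM against 10.8, 20.2 and 19.7 CPM. Both were higher at the parietal OF in every embryo, which their choice required, and without overlap (adjusted p = 0.249 and 0.273, edgeR). Tnmd, a membrane protein of tendon and ligament cells, measured 17.6, 33.7 and 31.7 CPM against 11.3, 3.08 and 3.70 CPM, and Tac1, the precursor of substance P, measured 6.20, 4.96 and 4.24 CPM against 0.953, 0.0670 and 0.329 CPM. Galnt17, a glycosyltransferase gene, measured 8.13, 24.4 and 9.25 CPM against 1.83, 1.34 and 1.89 CPM. Tppp3, a tubulin-binding protein, had the widest gap between embryos. It measured 7.999, 244 and 221 CPM against 6.23, 79.7 and 65.7 CPM, with embryo 1 low in both OFs and, at 2.98 CPM, in SM.

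SM of the same embryos was set beside these 18 genes. Of the 8 genes higher at the frontal OF, the SM mean lay between the means of both OFs for 5 and above both for 3, Foxl2os, Msx1 and Fgd6. Of the 10 higher at the parietal OF, it lay between them for 5, above both for 4 (Hs3st3b1, Fbn1, Tac1 and Zic1) and below both for Tppp3. Fbn1 was highest in SM, at 422, 543 and 534 CPM. Tfap2b was near the parietal level in SM, at a mean of 0.617 CPM.

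**Figure D2:**
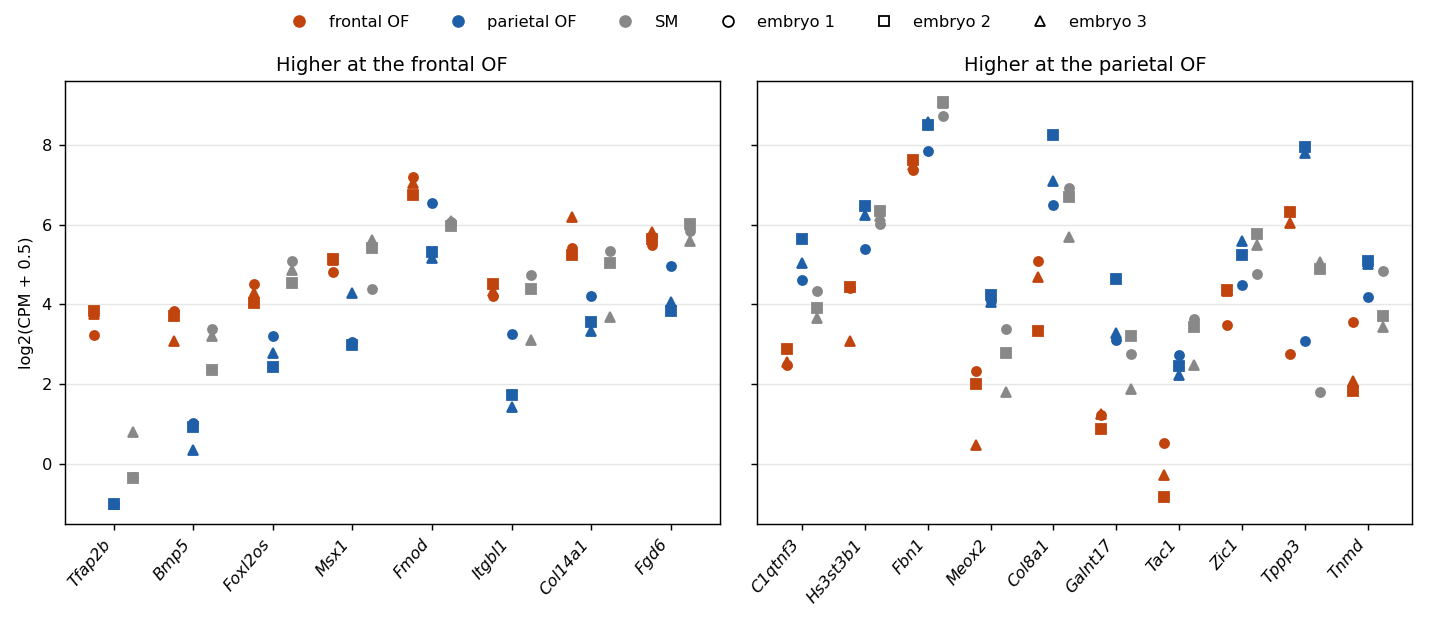
Levels of the 18 named genes, as log2(CPM + 0.5), in each of the 9 libraries: color gives the region (frontal OF, parietal OF, SM) and shape the embryo. Frontal and parietal points of a gene stand apart on the left panel for all 8 genes, with parietal Tfap2b at the bottom because its counts were 0, and on the right panel for all but Tppp3, where embryo 1 is low in each region. The genes were chosen from these libraries for a low p and the same direction in every embryo.

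At E16.5, genes of the core osteoblast program showed no difference between the fronts that passed the test. Sp7 measured 470, 471 and 496 CPM at the frontal OF and 394, 506 and 546 CPM at the parietal OF, a log2 fold change of -0.012 (SE 0.18). For Runx2 it was -0.13 (SE 0.18), and for Atf4, a factor of late osteoblast function, -0.22 (SE 0.21). Matrix genes gave 0.21 (SE 0.12) for Col1a1, the main collagen of bone, and 0.11 (SE 0.12) for Alpl, the phosphatase of mineralization. Ibsp, bone sialoprotein, measured 12499, 6350 and 6979 CPM at the frontal OF and 7685, 14288 and 8410 CPM at the parietal OF, and so was higher at the frontal OF in embryo 1 and at the parietal OF in embryos 2 and 3. Spp1, osteopontin, and Mmp13, a collagenase of bone, also crossed over between embryos, with log2 fold changes of 0.83 (SE 0.61) and -0.18 (SE 0.80). None of these genes passed the test, with adjusted p of 0.798 or more (edgeR), and their SEs limit what could have been seen. At E18.5, in the first libraries of 5 embryos, Sp7, Col1a1 and Alpl passed lower at the frontal OF. Their values were -0.74, -0.74 and -0.57 (adjusted p = 0.0057, 0.00053 and 0.022, edgeR). Mmp13 passed higher at the frontal OF there (2.95, adjusted p = 0.020, edgeR), and Runx2, Atf4, Ibsp and Spp1 did not pass. For Bglap2, an osteocalcin gene, all 6 OF libraries were at 1.76 CPM or less.

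Gene lists were read by their counts beside all genes. Of 331 distinct members of 16 pathway lists tested, 1 passed the test, Tfap2b. The list of neural crest and frontal bone transcription factors had 8 of 23 tested members above the parietal OF in all 3 frontal libraries and 2 in reverse, against 4.93% and 4.84% of all genes. The list also holds genes that are not transcription factors, such as the retinoic acid genes Cyp26b1 and Crabp1, and Cyp26b1 was among the 8. Its median log2 fold change was 0.63, against 0.00073 over all genes. Besides Tfap2b and Msx1 the 8 included Alx1, a homeobox factor of the frontonasal skeleton, at 26.7, 35.4 and 25.6 CPM against 21.0, 18.996 and 16.6 CPM. Alx4, of the same family (log2 fold change 0.52, SE 0.22), overlapped between the fronts. Foxc1, a forkhead factor of the skull vault named after its values were seen, measured 16.8, 23.6 and 19.6 CPM against 8.60, 5.84 and 5.93 CPM (adjusted p = 0.325, edgeR). Twist2, also named after its values were seen, was among the 2 in reverse, at 1.17, 1.00 and 3.12 CPM against 4.67, 10.1 and 14.4 CPM, while its relative Twist1, which is mutated in Saethre-Chotzen syndrome, gave 0.22 (SE 0.20).

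Factors of cranial mesoderm and head patterning did not mirror this. Of 23 members tested, 1 was above in all frontal libraries and 1, Zic1, above in all parietal libraries, and the median was 0.089. Tbx2, Tbx3 and Tbx15, T-box factors, gave log2 fold changes of -0.38 (SE 0.35), 0.34 (SE 0.84) and -0.95 (SE 0.53). Osteoblast transcription factors (1 of 16 above in all frontal libraries, none in reverse, median -0.033) and bone matrix and mineralization genes (3 and 1 of 35, median 0.11) lay near the background of all genes.

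Signaling lists showed no further call. For these lists and those that follow, the shares over all genes were 4.93% above in all frontal libraries and 4.84% in reverse. In the hedgehog pathway, 3 of 19 members were above in all frontal libraries and 1, Gli3, in reverse. Ihh, the ligand of the growing bone front, measured 15.4, 25.3 and 12.7 CPM at the frontal OF and 18.8, 36.3 and 63.0 CPM at the parietal OF (log2 fold change -1.13, SE 0.44). Its receptor and target Ptch1 gave -0.41 (SE 0.16), and Hhip, the hedgehog-binding antagonist of the suture, 0.37 (SE 0.20), at 178, 170 and 132 CPM against 122, 103 and 155 CPM. All 3 values failed the adjusted test (0.752, 0.753 and 0.794, edgeR), and Hhip was higher in SM, at 222, 239 and 372 CPM.

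In the BMP and TGF-beta pathway, 6 of 38 members were above in all frontal libraries and 1 in reverse, with a median of 0.21. Apart from Bmp5, the ligands Bmp2, Bmp3 and Bmp4 gave -0.18 (SE 0.28), 0.16 (SE 0.26) and -0.37 (SE 0.35). In the FGF list no member was above in all frontal libraries and 1 of 21, Fgf9, was in reverse, at 0.0821 to 1.41 CPM against 2.12 to 2.60 CPM. The receptors Fgfr1, Fgfr2 and Fgfr3, which carry craniosynostosis variants, gave 0.11 (SE 0.15), -0.11 (SE 0.14) and -0.27 (SE 0.27), and the ligands Fgf2 and Fgf7 gave 0.25 (SE 0.24) and -0.88 (SE 0.72). Fgf1 was at 3.13 CPM or less in all 6 libraries.

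The Wnt list had 2 of 35 members in each direction. Among its ligands, Wnt5a, named like Wnt9a after its values were seen, measured 14.4, 12.6 and 17.1 CPM at the frontal OF and 14.2, 13.7 and 16.8 CPM at the parietal OF, and Wnt9a 9.83, 31 and 15.4 CPM against 10.9, 36.6 and 23.3 CPM, both with overlapping fronts. Wnt2 measured 0.660, 0 and 0 CPM at the frontal OF against 1.73, 6.84 and 1.48 CPM, and Wnt2b gave -1.40 (SE 0.50). Ephrins and their receptors had 4 of 21 above in all frontal libraries and none in reverse. Efna1 and Efna2, membrane ligands of this family, were 2 of the 4, with log2 fold changes of 0.94 (SE 0.39) and 1.58 (SE 0.47), while Efna3 and Efna4 gave 0.96 (SE 0.76) and -0.27 (SE 0.49). In the first libraries of all 5 embryos Efna1 turned to -0.14. The Notch list had 3 of 13 above in all frontal libraries and none in reverse, with a median of 0.45. Its ligands Jag1 and Jag2 were not among them (-0.053, SE 0.23, and -0.023, SE 0.51). Retinoic acid genes had 2 and 1 of 15, where the synthetic enzymes Aldh1a2, Aldh1a3 and Rdh10 gave 1.92 (SE 1.12), 0.27 (SE 0.73) and -0.37 (SE 0.39).

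Insulin-like growth factor genes had 1 of 11 in each direction. Igf1 and Igf2, the growth factors, gave 0.89 (SE 0.33) and 0.60 (SE 0.22), whereas the receptors Igf1r and Igf2r gave -0.086 (SE 0.16) and 0.068 (SE 0.12). In the osteoclast and RANKL list, 2 of 10 were above in all frontal libraries and 1, the RANK receptor Tnfrsf11a, in reverse (-1.01, SE 0.46, but 0.077 in the first libraries of the same embryos). Tnfrsf11b, the decoy receptor, gave -0.99 (SE 0.94). Acp5, the osteoclast phosphatase, gave 0.40 (SE 0.34), but -6.82 in the first libraries of the same embryos. None of these passed the test.

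In the cell cycle list more members were higher at the parietal OF. No member was above in all frontal libraries (4.93% of all genes), and 5 of 25 were above in all parietal libraries (4.84% of all genes). A fitted value below 0 was found for 22 of 25, against 8131 of 16294 over all genes, and the median was -0.13. Genes of this list are not independent replicates, so that these counts are descriptions only. Mki67, the proliferation antigen, measured 706, 689 and 644 CPM at the frontal OF and 808, 913 and 735 CPM at the parietal OF (log2 fold change -0.27, SE 0.13). Top2a, the topoisomerase of dividing cells, measured 271, 294 and 287 CPM against 346, 331 and 314 CPM (-0.22, SE 0.13). Cdk1 and Ccnb1, which drive entry into mitosis, gave -0.25 (SE 0.21) and -0.30 (SE 0.17) with overlapping fronts, and no member passed the test. Glycolysis and hypoxia genes had none of 19 in either direction, with Slc2a1, Hk2, Pfkp and Aldoa at -0.068 (SE 0.19), -1.07 (SE 0.39), -0.38 (SE 0.26) and -0.19 (SE 0.14). Human craniosynostosis genes had 6 and 3 of 36, a median of 0.11 and no call.

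**Figure D3:**
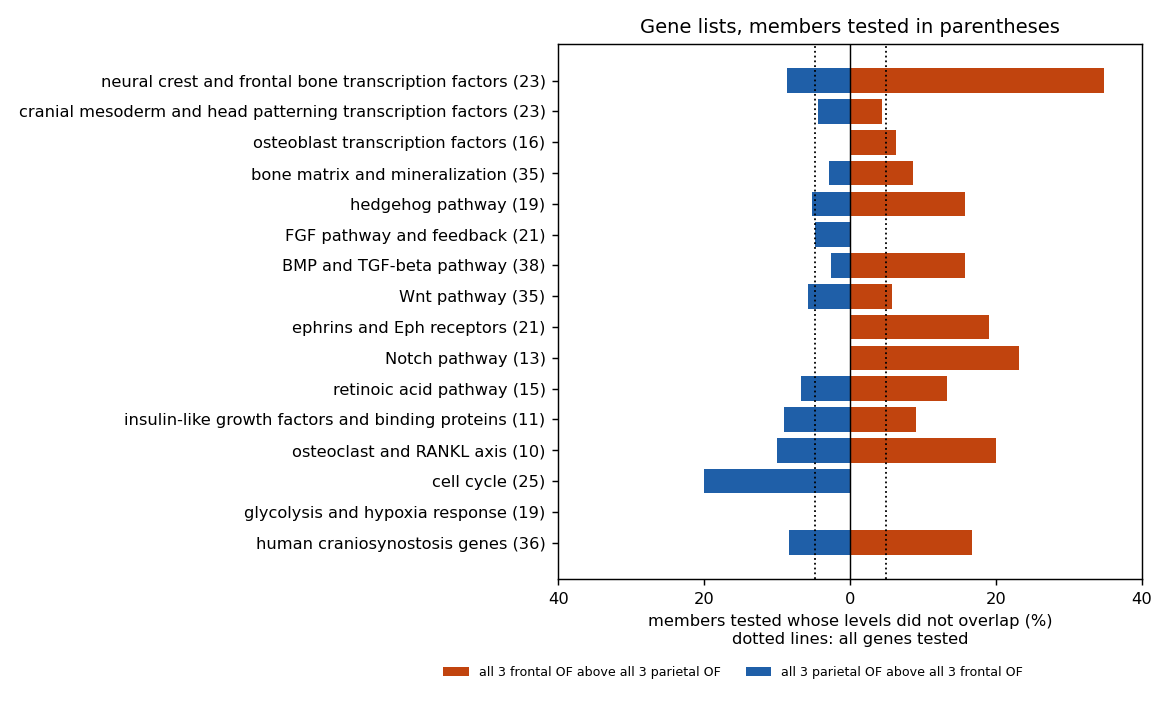
For each of the 16 pathway lists, the bar to the right is the percent of tested members whose 3 frontal OF values all exceeded the 3 parietal OF values, and the bar to the left the percent in reverse. Dotted lines mark all genes tested (4.93% and 4.84%): the neural crest list reaches farthest to the right with 8 of 23 and the cell cycle list farthest to the left with 5 of 25.

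Summed levels of markers of other cell types were set beside these genes. No tested member of the lists for dura mater, macrophages and ectocranial mesenchyme passed the test in edgeR with all 3 embryos. In DESeq2 Mrc1, Col8a1 and Pi16 passed (adjusted p = 0.0313, 0.0220 and 0.0370), and in limma-voom Col8a1. Without embryo 1, Ptgds, Col8a1 and Mfap5 passed in edgeR. Over all genes, 8163 of 16294 had a fitted value above 0 and 8131 below 0. The summed level of 9 dura mater markers was 127 to 252 CPM at the frontal OF and 94.3 to 124 CPM at the parietal OF, without overlap and with no marker at 0 in all 6 OF libraries. None of the 7 dura markers tested was by itself above in all frontal or in all parietal libraries, while 6 had a fitted value above 0 (median 0.85). Cgnl1, which had the highest level of them, measured 80.6, 81.1 and 83.6 CPM at the frontal OF and 55.3, 86.9 and 49.7 CPM at the parietal OF. Ptgds, a meningeal gene among them, measured 0.0733, 5.49 and 42.2 CPM against 0.467, 0.0590 and 0.353 CPM. The 11 macrophage markers summed to 99.7 to 152 CPM at the frontal OF and 153 to 211 CPM at the parietal OF, also without overlap. Of these 11, 8 had a fitted value below 0 (median -0.16), and Mrc1 and C1qb were above in all parietal libraries. Mrc1, a mannose receptor with the highest parietal levels of the list, measured 26.7, 19.03 and 22.9 CPM against 39.99, 43.7 and 62.6 CPM. Both for dura mater (127 against 124 CPM) and for macrophages (152 against 153 CPM) the nearest sums of the fronts were close. Of the 7 ectocranial mesenchyme markers, 3, including Col8a1, were above in all parietal libraries, 5 had a fitted value below 0, and the median log2 fold change was -1.68. Their sums (826 to 966 against 913 to 1090 CPM) overlapped, but Lum, which had the highest level of them, was higher at the frontal OF in embryos 2 and 3, at 706, 721 and 856 CPM against 709, 538 and 586 CPM. Igfbp3, another of the 3, measured 77.6, 74.8 and 68.2 CPM against 78.7, 205 and 151 CPM. Their part in the differences between the fronts was not tested.

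The other marker sums overlapped between the fronts when all 3 embryos were pooled. Within embryos, the erythroid sum was higher at the frontal OF in 3 of 3, at 2147, 934 and 1786 CPM against 1426, 683 and 860 CPM. A fitted value above 0 was found for 8 of 8 erythroid genes tested, against 8163 of 16294 over all genes. Of the 8, 5 had an unadjusted p under 0.05 (6.30% of all genes) and none passed the adjusted test (edgeR). Genes of a cell type list are not independent replicates, so that such counts are descriptions only. The sums for hypodermis and dermis, brain and nerve, epidermis and fat were lower at the frontal OF in 3 of 3 embryos. At the OFs the fat sum was that of Fabp4 alone, since the other 4 of its 5 markers were at 0. For suture mesenchyme markers they were 2107 to 2517 CPM against 1721 to 2237 CPM, for endothelial markers 263 to 355 against 146 to 376 CPM, for pericyte and smooth muscle markers 294 to 483 against 246 to 464 CPM, and for erythroid genes 934 to 2147 against 683 to 1426 CPM. Chondrocyte markers summed to 83.6 to 127 CPM against 51.5 to 86.2 CPM and hypodermis and dermis markers to 22.5 to 43.1 against 42.7 to 47.2 CPM. Of the chondrocyte genes tested, 8 of 9 had a fitted value above 0 (median 1.28), and of the endothelial genes 8 of 9 (0.63). For pericytes and smooth muscle it was 7 of 9 (0.74) and for suture mesenchyme 10 of 12 (0.36). For hypodermis and dermis it was 2 of 5 (-0.43), brain and nerve 3 of 7 (-0.11), skeletal muscle 2 of 4 (-0.014) and epidermis 1 of 3 (-0.82). Brain and nerve (28.9 to 56.5 against 49.7 to 73.6 CPM), skeletal muscle (7.02 to 19.9 against 12.9 to 15.9 CPM), epidermis (3.14 to 10.4 against 5.32 to 10.9 CPM), mast cell (10.3 to 43.3 against 31.2 to 36.3 CPM) and fat markers (4.18 to 25.8 against 6.84 to 27.8 CPM) were low. The mast cell sum was higher at the frontal OF in embryo 1 and lower in embryos 2 and 3. The median over the 4 mast cell markers tested was -3.88, with 3 below 0 and 1, Kit, above. Kit measured 13.9, 13.7 and 10.3 CPM at the frontal OF against 11.7, 2.06 and 4.51 CPM at the parietal OF. At the frontal OF of embryos 2 and 3 the mast cell sum was that of Kit alone. The proteases Cma1 and Cpa3 were at 0 at the frontal OF of embryos 2 and 3 and at 15.4 and 13.3 CPM in embryo 1, against 7.00, 5.90 and 12.8 CPM and 8.07, 17.3 and 9.75 CPM at the parietal OF. Tpsb2, a tryptase, measured 0.66, 0 and 0 CPM against 4.33, 6.78 and 5.09 CPM, without overlap. No tested member of the lists in this paragraph passed in edgeR with all 3 embryos, nor in limma-voom. In DESeq2 Hbb-y and Hbb-bs of the erythroid list passed (adjusted p = 0.0048 and 0.0113). So did, in DESeq2, Tpsb2 (0.0014), the chondrocyte genes Acan and Matn4 (0.0296 and 0.0433), Pdgfrb of pericytes (0.0301) and Pi16 (0.0370). Without embryo 1, Acan, Abcc9 of pericytes and Mest of suture mesenchyme passed in edgeR. The part of these cell types in the differences between the fronts was not tested either. Defining genes at 0 in all 6 OF libraries were Ckm and Myod1 of muscle, Sox2 and Neurod1 of the brain, Krt14 and Krt15 of the epidermis, and Adipoq and Plin1 of fat. Other members of these lists were detected there, such as Ttn of muscle at 3.88 to 16.1 CPM and Tubb3 of nerve at 6.91 to 40.7 CPM.

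The embryos did not agree equally. Over 10920 genes with a mean of at least 5 CPM, the log2 difference between the fronts of embryo 2 correlated with that of embryo 3 (r = 0.251), but that of embryo 1 with neither (r = -0.055 with embryo 2 and -0.0039 with embryo 3). These are descriptions across genes, which are not independent replicates, and embryos 2 and 3 are close in litter label. The SD of the differences was 0.451, 0.806 and 0.631 in embryos 1, 2 and 3. Without embryo 1, 47 of 15115 genes passed the test (0.311%), 33 higher and 14 lower at the frontal OF, and among them were all 3 genes called in 3 embryos and 10 of the 18 named genes. Of the 47, 22 had the same direction in embryo 1. Without embryo 2 or without embryo 3 no gene passed (edgeR, 747 and 533 genes at an unadjusted p under 0.05). The log2 fold change of C1qtnf3 was then -2.42 and -2.55, and the log2 differences of the single embryos were -2.11, -2.74 and -2.48 for C1qtnf3 and 4.23, 4.82 and 4.77 for Tfap2b.

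Genes that passed without embryo 1, but not in the test of all 3 embryos above, included growth factor and matrix genes, named here after their values were seen. Postn, a matrix protein of the periosteum, measured 1001 and 1133 CPM at the frontal OF of embryos 2 and 3 and 352 and 407 CPM at the parietal OF, but 889 against 1046 CPM in embryo 1. Six2, a homeobox factor of craniofacial mesenchyme, measured 104 and 74.1 CPM against 11.98 and 15.8 CPM in embryos 2 and 3, and 57.6 against 60.3 CPM in embryo 1. Igf1 was likewise higher at the frontal OF in embryos 2 and 3 (119 and 90.1 against 32.3 and 38.1 CPM) and lower in embryo 1 (65.3 against 84.1 CPM). It also passed in 1 of the 15 alternatives other than leaving out an embryo. These genes crossed the fronts in embryo 1, and the difference between the embryos was not tested.

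**Figure D4:**
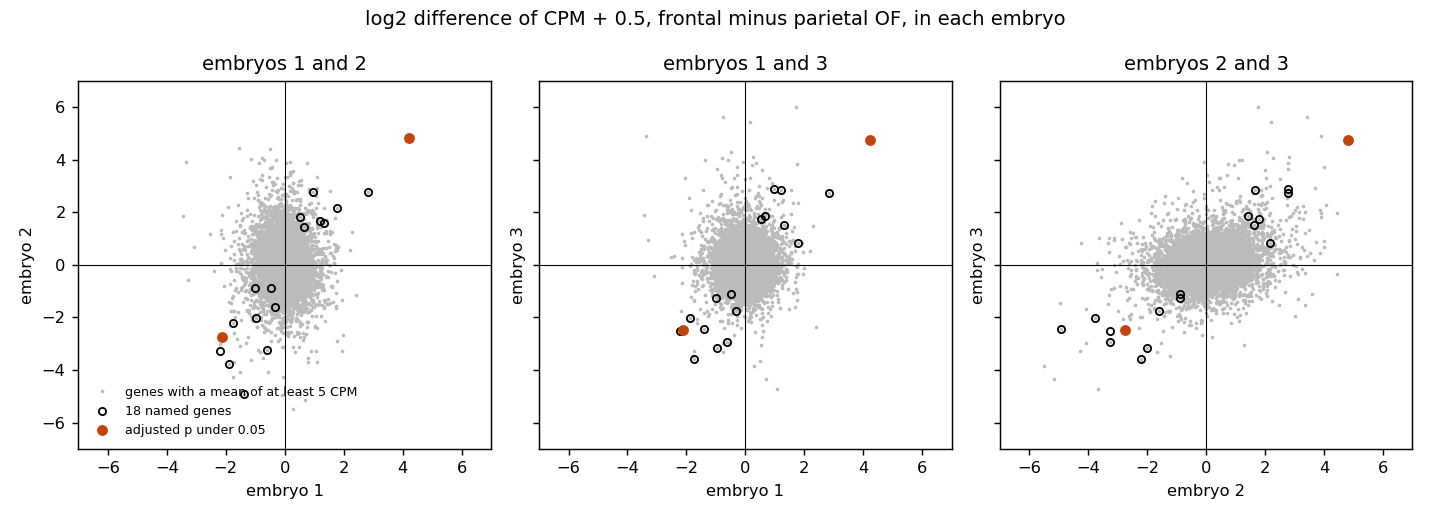
Each panel sets the log2 difference of CPM + 0.5 (frontal minus parietal OF) of 1 embryo against that of another, for genes with a mean of at least 5 CPM (gray), the 18 named genes (open) and Tfap2b and C1qtnf3 (filled). The gray cloud tilts for embryos 2 and 3 (r = 0.251) and stands upright where embryo 1 is on the horizontal axis (r = -0.055 and -0.0039).

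The second libraries were compared with the first libraries of the same 3 embryos. The biological coefficient of variation, the relative spread of a gene that remains after region and embryo are accounted for, was 0.429 in the second libraries and 0.792 in the first. The median SD of log2 levels between embryos was 0.266 at the frontal OF and 0.308 at the parietal OF, against 0.558 and 0.455 in the first libraries. The first libraries were deeper, at 21553889 to 33014679 counts, but 25.7 to 41.7% of these lay on mitochondrial genes. In the first libraries no gene passed the test of the fronts (703 at an unadjusted p under 0.05 in edgeR), and no gene passed the test of a difference between the library sets (800 of 18041, or 4.43%, at an unadjusted p under 0.05 in edgeR, none in limma-voom and 219 in DESeq2). In the first libraries of all 5 embryos, Tfap2b and C1qtnf3 can be set beside the values above. Tfap2b had a lowest, median and highest level of 2.02, 9.67 and 19.8 CPM at the frontal OF and was at 0 in all 5 parietal libraries. C1qtnf3 measured 0, 4.62 and 12.1 CPM at the frontal OF against 0.933, 14.2 and 24.8 CPM at the parietal OF, and overlapped between the fronts there.

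Embryos that took no part in the choice of the 18 genes gave a check of their directions, although the litter label of embryo 5 differs from those of embryos 2 and 3 only in its last part. In the first libraries of embryos 4 and 5 at E16.5, 6 and 7 of the 8 frontal genes and 7 and 9 of the 10 parietal genes had the same direction, against 52.3% and 51.8% of all genes with a value. The exceptions in embryo 4 were Fmod (log2 difference -0.12), Fgd6 (-0.62), C1qtnf3 (2.17), Galnt17 (0.84) and Tac1 (0.30). Those in embryo 5 were Fmod (-0.013) and Tac1 (2.61). At E18.5, in the first libraries of 5 further embryos, 7 of 8 frontal and 9 of 10 parietal genes had the same direction, against 55.8% of 15759 genes. The others were Fmod, with a log2 fold change of -0.33, and Fbn1, with 0.39 (adjusted p = 0.447 and 0.0538, edgeR). There 6 of the frontal genes and 5 of the parietal genes passed the test in that direction, where 978 of 17903 genes passed in either direction (5.46%). The 6 were Tfap2b, Bmp5, Msx1, Itgbl1, Col14a1 and Fgd6, and the 5 were C1qtnf3, Hs3st3b1, Col8a1, Zic1 and Tnmd.

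At E18.5, Tfap2b and C1qtnf3 had the following levels, which were not tested against those at E16.5. Tfap2b had a lowest, median and highest level of 1.80, 2.18 and 6.21 CPM at the frontal OF and was again at 0 in the 5 parietal libraries. C1qtnf3 measured 22.5, 57.0 and 74.9 CPM at the frontal OF and 53.7, 120 and 194 CPM at the parietal OF, levels that overlapped. The log2 fold change of C1qtnf3 there was -1.36, with an adjusted p of 0.00765 (edgeR quasi-likelihood test, Benjamini-Hochberg). Bmp5, Msx1 and Tnmd gave 1.32, 1.75 and -2.73, and Tac1 and Meox2 -0.0083 and -0.050.

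A difference between E16.5 and E18.5 was tested within the second libraries, where 2 embryos of E18.5 had both OFs. No gene passed (1387 of 18184, or 7.63%, at an unadjusted p under 0.05 in edgeR, smallest adjusted p = 0.173), while 9 genes passed in limma-voom and 168 in DESeq2. For the 18 genes with the lowest p given above, the fitted difference of E16.5 less E18.5 was widest for Tfap2b, at 4.17 with parietal counts of 0, and for Tac1 at -2.69, Meox2 at -2.40 and Bmp5 at 2.03, all with an adjusted p of at least 0.336 (edgeR).

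Other sutures of E16.5 embryos allowed the same bones to be compared away from the coronal suture. At the frontal suture, between the paired frontal bones, Tfap2b had a median of 31.3 CPM (18.4 to 46.5, n = 5) at the frontal OF, against 0.121 CPM (0 to 0.188) at the parietal OF of the sagittal suture and 0 CPM (0 to 0.0924) at that of the lambdoid suture. Tfap2b thus kept the frontal bone above the parietal bone without overlap. C1qtnf3 did not keep its order, with medians of 88.4 CPM (59.8 to 115) at the frontal suture, 58.6 CPM (35.2 to 81.4) at the sagittal suture and 52.1 CPM (13.2 to 79.0) at the lambdoid suture. Against the sagittal suture, 6 of the 8 frontal genes and 7 of the 10 parietal genes kept their direction (55.9% of all genes). Against the lambdoid suture 8 and 8 did (56.0%). Msx1 was one of those that differed, with a log2 difference of medians of -0.84 against the sagittal and 1.19 against the lambdoid suture. Col8a1, at 0.27 and 0.92, was higher at the frontal bone in both. These groups differ in suture as well as in bone, and no test was run on them.

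**Figure D5:**
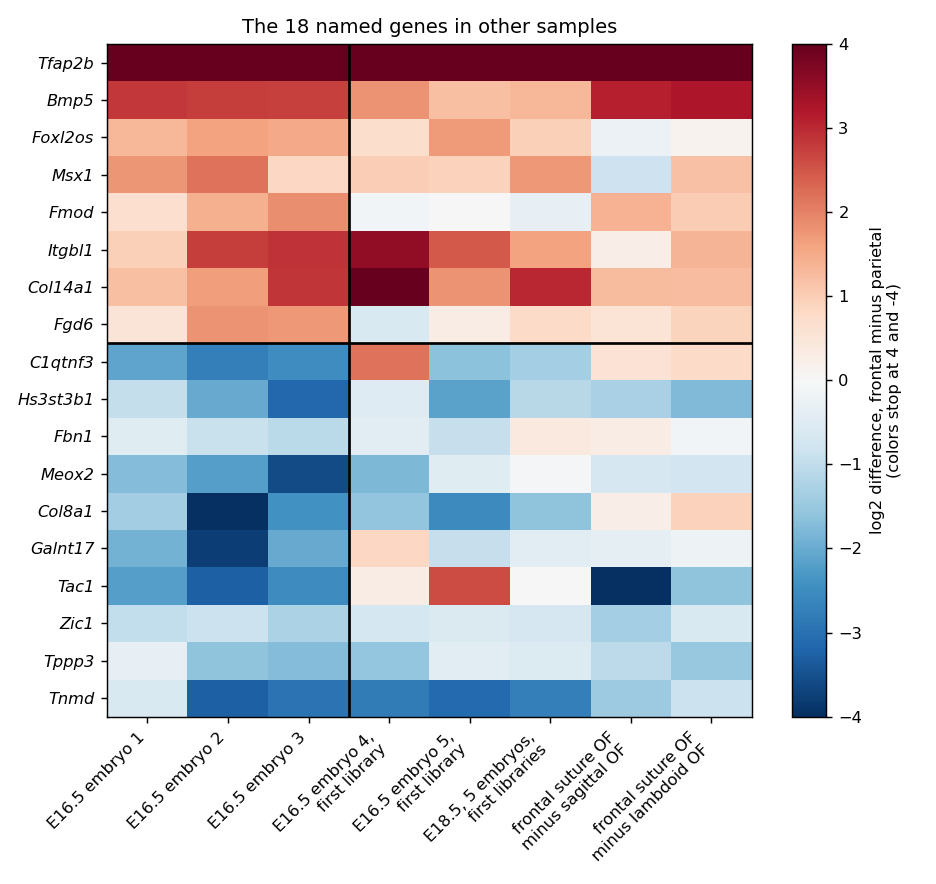
Log2 differences of the 18 named genes, frontal minus parietal, in the 3 embryos that chose them (left of the vertical line) and in other samples (right): embryos 4 and 5 at E16.5, the fit of 5 embryos at E18.5, and the median at the frontal suture less that at the sagittal or lambdoid suture. Red is higher in frontal and blue higher in parietal bone; Tfap2b is dark red throughout, while C1qtnf3 turns red in embryo 4 and against both other sutures.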

How the data were processed

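Regions were laser-captured from coronal sutures, and the authors amplified total RNA (Ovation RNA-Seq V2), made Nextera XT libraries, trimmed reads with cutadapt, aligned them to mm10 with STAR 2.5.3a and counted them on GENCODE genes with featureCounts 1.6.4, without strand. The deposited values are raw counts for 55487 genes, without normalization or molecular identifiers. A deposited table of the authors' log2 ratios between groups was not used.

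The compared groups, 3 frontal and 3 parietal OF, were modeled with 3 SM libraries of the same embryos in R 4.3.3 with edgeR 4.0.16 (TMM scaling, genes with at least 1 CPM in 3 libraries, glmQLFit and glmQLFTest, region and embryo as terms, 4 residual degrees of freedom, two-sided, Benjamini-Hochberg adjustment, threshold 0.05). Regions of the same number carry the same litter label and come from the same embryo, hence the replicate block. Deviations from region means correlated at 0.0168 to 0.218 within embryos (9 pairs) and -0.171 to 0.0795 between embryos (18 pairs). No 2 libraries agreed within sampling noise. The p-values rest on the spread that remains between the libraries of 3 embryos, SM included, after region and embryo are accounted for. An SE is the size of the log2 fold change divided by the square root of the F statistic of the edgeR test, which gives no SE itself. Per-embryo differences use log2(CPM + 0.5), and other sets were scaled separately.

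Named genes had the same direction in 3 embryos and at least 5 CPM in the higher OF, and no predicted gene names. Fewer than 5 passed per direction, so the 10 with the lowest p were taken (8 and 10 are given), with list members that passed and the first 4 of each pathway list. Further members of lists named in the text were chosen after their values were seen. A further 4 genes that the rule named are not reported here, although counts over lists and over all genes include them. Members and lists were chosen with earlier results of these data known. Alternatives were DESeq2 1.42.0, limma-voom 3.58.1, other scalings, filters, samples and blocks. On simulated data for this comparison, 33.5% of 200 genes changed 2-fold, 75.5% of 200 changed 4-fold and 93.5% of 200 changed 8-fold were recovered. Only genes of higher counts were changed there, and no effect of embryo was simulated. Figures and summaries used Python 3.11.15.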

Additional observations from a re-analysis of the deposited data

Results flagged for a closer look

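In groups of 5 libraries, the levels of Tfap2b and C1qtnf3 were searched for a library far from the other 4 (gap to the nearest value over the range above 0.71). Of 16 groups with a range above 0, 4 held one. The limit is set for about 1 in 20 among normally distributed values. Levels near 0 do not follow that distribution, so that the 4 cannot be set against this share. At the lambdoid parietal OF the lowest and median levels of Tfap2b were 0. Each was the highest of its group. C1qtnf3 reached 98.2 CPM in 1 SM library at E18.5 (first libraries). Tfap2b reached 4.47 CPM in 1 SM library and 6.21 CPM in 1 frontal OF library of the coronal suture at E18.5, and 0.0924 CPM in 1 library of the lambdoid parietal OF at E16.5. None of these groups entered the test of the fronts at E16.5 in the second libraries.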

How the results depend on the processing

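Of the 15 alternatives other than leaving out an embryo, the count of genes called between the fronts stayed within 1.5 times of 3 in 8, including median-ratio scaling (3 genes), a minimum of 5 CPM (3) and the 6 OF libraries alone (3). It was 175 without a low-count filter, 87 in DESeq2, 7 in limma-voom, 6 with the second libraries of both ages in 1 model, and 0 with the first libraries of the same 3 embryos, the first libraries of all 5, or both libraries summed. All 3 genes were among the 175, 87 and 7, but 2 of the 3 among the 6, where Tfap2b did not pass (adjusted p = 0.108, edgeR). Leaving out 1 embryo at a time gave 0 to 47 genes. Without the replicate block 2 genes passed, both among the 3. Pathway list members called numbered 29 without a filter, 14 in DESeq2, 3 in limma-voom, 0 in each of the sets with first libraries and 0 to 8 without 1 embryo, against 1. The difference between library sets gave 5 genes without a filter and 219 in DESeq2. The difference between ages gave 141 without a filter, 168 in DESeq2, 9 in limma-voom and 1 without the block, 0 to 1 without 1 embryo of E16.5, and 0 to 2 without 1 of E18.5. The coefficient of variation was 0.338 to 0.419 without 1 embryo and 0.792 in the first libraries. The causes were not tested. Leaving out mitochondrial and ribosomal RNA-rich transcripts, an alternative chosen after seeing the data, left 3 genes.

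The 18 named genes kept their direction in every alternative in which they were tested. Other genes turned, none of which had passed the test. These were Igf2r (-0.022) with total counts, Sp7 in limma-voom (0.0047) and in the OF libraries alone (0.0052), and Aldh1a3 without the replicate block (-0.15). With the first libraries of the same embryos the values were Runx2 0.085, Fgf7 0.049, Bmp2 0.31, Bmp3 -0.065, Bmp4 0.31, Jag1 0.11, Aldh1a3 -0.19, Rdh10 0.94, Igf1r 0.19, Tnfrsf11a 0.077, Acp5 -6.82, Pfkp 0.62, Fgfr2 0.15, Twist1 -0.32 and Mmp13 0.15. With those of all 5 embryos they were Tbx2 0.20, Runx2 0.053, Fgf7 0.76, Bmp4 0.22, Efna1 -0.14, Efna3 -0.098, Efna4 0.60, Jag1 0.036, Jag2 0.29, Aldh1a3 -0.18, Rdh10 0.47, Igf2r -0.044, Acp5 -2.62, Pfkp 0.41, Fgfr2 0.23, Twist1 -0.19, Mmp13 0.11 and Col1a1 -0.013. With both libraries summed they were Runx2 0.033, Bmp2 0.13, Bmp4 0.10, Jag1 0.081, Rdh10 0.48, Igf1r 0.096, Acp5 -0.37, Pfkp 0.25 and Fgfr2 0.077. Leaving out 1 embryo gave ranges across 0 of -0.063 to 0.50 (Bmp3), -0.22 to 0.066 (Jag1), -0.041 to 0.19 (Fgfr1), -1.49 to 1.06 (Mmp13), -1.63 to 0.0094 (Tbx15), -0.12 to 0.071 (Sp7), -0.57 to 0.084 (Atf4), -0.77 to 0.19 (Ibsp), -0.068 to 0.54 (Fgf2), -0.89 to 0.24 (Efna4), -0.34 to 0.15 (Jag2), -0.41 to 1.03 (Aldh1a3), -0.27 to 0.16 (Igf1r), -0.10 to 0.011 (Slc2a1), -0.037 to 0.41 (Twist1), -0.24 to 1.47 (Spp1) and -0.48 to 0.25 (Bmp2).

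The comparison rests on 3 embryos with 1 library per region. Genes near the 1 CPM minimum are measured by about 13 to 17 counts per library, and amplification without molecular identifiers means that counting intervals cover counting error only.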
